A study of Mus musculus and Rattus norvegicus with 30 samples.

Results

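The transcripts of 10 cardiac transcription factors were described: Gata4, Gata6, Mef2a, Mef2c, Mef2d, Srf, Nkx2-5, Tbx5, Tbx20 and Hand2. They were chosen by name as factors held to work beside the estrogen-related receptors (ERRs), and all 10 were found among the 32545 rat genes and among the 54307 mouse genes. All 10 also passed the filter on low counts in both species. Whether the proteins act together with an ERR was not measured. The rat samples were neonatal ventricular myocytes from pups at postnatal day 3, grown in medium with bromodeoxyuridine, transfected with siRNA (typically 25 nM), and then exposed to the compound 915 or its vehicle for 24 h. The protocol also lists siRNAs against Esrrb and E2f1, without saying which cells received them. The 4 rat groups, of 3 libraries each, were knockdown cells (siRNA against ERRalpha and ERRgamma) with 915 at 10 µM, knockdown cells with the DMSO vehicle, scramble-siRNA cells with 915 at 10 µM, and scramble-siRNA cells with vehicle. The mouse samples were left ventricles of wild-type mice after transverse aortic constriction (TAC), which narrows the aorta and loads the left ventricle, or after sham surgery. The 4 mouse groups were TAC with 332 (5 hearts), TAC with vehicle (5 hearts), sham with 332 (5 hearts) and sham with vehicle (3 hearts). Treatment was by intraperitoneal injection for 6 weeks after surgery, and the labels used here give no age, sex or strain. Both 332 and 915 are agonists of the ERRs. The labels do not say whether animals were pooled or whether replicates came from separate preparations, so p-values measure only the spread between these samples.

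Gata4, Gata6, Nkx2-5, Tbx5, Tbx20, Hand2, Srf and the MEF2 proteins form the core regulatory network of heart muscle, where they bind each other and occupy neighbouring sites at genes of the contractile apparatus. Gata4 and Gata6 are zinc finger proteins that read GATA sites, the MEF2 proteins and Srf are MADS-box proteins that read A/T-rich sites, Nkx2-5 is a homeodomain protein, Tbx5 and Tbx20 are T-box proteins and Hand2 is a basic helix-loop-helix protein. The ERRs are nuclear receptors that drive genes of fuel oxidation and mitochondria, and in cardiac myocytes ERRgamma and Gata4 have been described at the same enhancers.

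Promoter sequence was at hand in RefSeq (mouse GRCm38.p6, from 250 bases before to 50 bases after a start, 300 bases in all) for 7 of the 10 genes, in 9 windows, 3 of them for Mef2c. The windows were searched on both strands for the ERR response element TNAAGGTCA, found in 1.28% of all 32817 windows, and for the nuclear receptor half-site AGGTCA that it contains, found in 16.3%. Neither the window of Mef2a, Mef2d, Srf, Nkx2-5, Tbx20 or Hand2 nor any of the 3 of Mef2c held TNAAGGTCA, and 2 of the 3 Mef2c windows held AGGTCA. The GATA sequence AGATAA stood in 11.2% of all windows and its variant TGATAA in 9.06%, and among these genes only the Hand2 window held them, 1 of each. The homeodomain sequence TGAAGTG stood in 4.03% of all windows and in none of the 9. The T-box sequence AGGTGT stood in 13.7% of all windows and in 1 Mef2c window. The E-box CANNTG stood in 72.3% of all windows and in those of Hand2, Nkx2-5 and, for Mef2c, 2 of the 3. A CArG box, the element read by Srf, was present in 1.63% of all windows, and Srf's own window held 2 of them, starting 82 and 62 bases before the start. The canonical MEF2 site was present in 1.86% of all windows, and Mef2a's own window held 1, starting 2 bases before the start. These 2 stretches are printed because Srf and Mef2a were among the genes that changed after TAC and under the knockdown. Capitals mark the CArG boxes of Srf (chr17:46556163-46556412, minus strand) and the MEF2 site of Mef2a (chr7:67372841-67372870, minus strand). A match describes letters in a window and is not evidence of binding.
Srf: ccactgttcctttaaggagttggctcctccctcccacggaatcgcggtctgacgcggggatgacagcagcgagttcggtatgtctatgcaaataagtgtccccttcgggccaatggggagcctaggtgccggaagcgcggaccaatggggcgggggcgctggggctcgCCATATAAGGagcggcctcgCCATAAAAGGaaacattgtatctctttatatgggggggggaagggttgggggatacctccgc
Mef2a: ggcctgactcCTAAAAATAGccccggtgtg

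The 3 MEF2 genes also share a small alternative exon within the part that encodes the activation domain. It is 24 bases long in Mef2a (chr7:67244521-67244544, minus strand), 24 in Mef2c (chr13:83654598-83654621, plus strand) and 21 in Mef2d (chr3:88161781-88161801, plus strand), in GRCm38 with the GENCODE M21 annotation. The exon is in capitals below, with 20 bases of the neighbouring exons on each side.
Mef2a: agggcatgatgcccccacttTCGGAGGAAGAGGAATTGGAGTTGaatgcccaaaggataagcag
Mef2c: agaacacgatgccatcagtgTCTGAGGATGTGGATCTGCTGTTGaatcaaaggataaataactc
Mef2d: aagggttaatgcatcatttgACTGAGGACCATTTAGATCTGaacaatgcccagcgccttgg

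The rat libraries held 12013379 to 18315341 counts each and the mouse libraries 11375894 to 16599899, and the least covered of the 10 genes in any library had 201 counts in rat and 115 in mouse. The targeted genes were low in the cells labelled knockdown: Esrra ranged from 12.7 to 22.0 CPM in the 6 knockdown libraries and from 169.5 to 228.8 CPM in the 6 scramble libraries, and Esrrg from 16.1 to 25.1 CPM and from 130.3 to 301.8 CPM. Esrrg also rose with 915 in scramble cells (log2 fold change 1.10 ± 0.09, adjusted p = 2.173e-07). Esrrb, which the genotype label does not name, was also lower in knockdown cells with vehicle than in scramble cells with vehicle (log2 fold change -1.88 ± 0.27 SE, adjusted p = 1.057e-05). Cardiomyocyte markers were abundant in every group, with summed levels of 7115 to 23490 CPM in rat and 44020 to 69740 CPM in mouse. Fibroblast, smooth muscle, endothelial, leukocyte and epicardial markers were present too, and none of the matched markers was at 0 throughout. Levels below are in CPM of the TMM-scaled library size, unless FPKM or TPM is named. A gene is called where the adjusted p (edgeR quasi-likelihood test, adjusted over all genes tested by the Benjamini-Hochberg method) is under 0.05, and errors of log2 fold changes are SE.

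In rn6, Gata4 lies at chr15:46386712-46432965, Gata6 at chr18:2416552-2446338, Mef2a at chr1:128209971-128341263, Mef2c at chr2:11658568-11822787 and Mef2d at chr2:187512164-187538026. Srf lies at chr9:16737642-16747225, Nkx2-5 at chr10:16635989-16638764, Tbx5 at chr12:42097626-42148146, Tbx20 at chr8:25850962-25904570 and Hand2 at chr16:36371489-36373546. No other gene of the table overlapped any of the 10. By deposited FPKM or TPM, which take transcript length into account, Gata4 stood first in the vehicle-treated scramble cells and in the vehicle-treated sham hearts. In the other rat groups Nkx2-5 stood first by mean FPKM. It averaged 171 against 147 for Gata4 in scramble cells with 915, and 163 against 98.3 in knockdown cells with 915. In knockdown cells with vehicle it averaged 112 against 106, with overlapping ranges. In scramble cells with vehicle, Gata4 averaged 122 ± 1.64 FPKM and Nkx2-5 110 ± 7.77 FPKM (SD, n = 3 each), and the lowest Gata4 library was above the highest Nkx2-5 library. Mef2d (68.9 ± 4.42 FPKM) and Srf (63.4 ± 1.09 FPKM) followed, then Mef2a (53.1 ± 1.82 FPKM) and Tbx20 (47.9 ± 4.38 FPKM), whose ranges overlapped. Below them came Gata6 (36.8 ± 1.10 FPKM), Hand2 (20.2 ± 1.45 FPKM), Mef2c (8.95 ± 0.303 FPKM) and Tbx5 (6.33 ± 0.395 FPKM). The rat gene model of Hand2 holds only 645 bases, the shortest of the 10, and its FPKM depends on that length. In sham hearts with vehicle Gata4 was again first, at 14.9 ± 0.888 TPM (SD, n = 3). Its transcript of 2407 bases held 44.3% of this, at 6.60 TPM. Short transcripts of 653 and 683 bases held 36.4% and 14.9%. The transcript of 2407 bases alone lay below the means of Mef2a, Mef2d and Nkx2-5 given next, so the first place rests on the short transcripts. Mef2a (12.4 ± 0.625 TPM) overlapped in range with Mef2d (10.9 ± 2.14 TPM), and Mef2d with Nkx2-5 (10.7 ± 0.765 TPM). Srf (8.04 ± 0.137 TPM) and Gata6 (7.09 ± 0.723 TPM) were next and did not overlap, then Mef2c (4.60 ± 1.22 TPM). Tbx20 (2.67 ± 0.289 TPM) and Tbx5 (2.29 ± 0.182 TPM) overlapped, and Hand2 was lowest at 1.41 ± 0.256 TPM. In CPM of that group Hand2 averaged 29.7, over its only transcript of 2351 bases. Tbx5 averaged 21.4 CPM there, with most of its TPM from a transcript of 3942 bases. Counts over length therefore put Hand2 above Tbx5, against the order of the deposited TPM. The reason was not tested. In TAC hearts with vehicle Srf stood second, at 20.3 ± 6.79 TPM, and Tbx5 last, at 1.21 ± 0.393 TPM (SD, n = 5 each). A short Srf transcript of 376 bases held 30.9% of the TPM of Srf there.

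**Figure D1:**
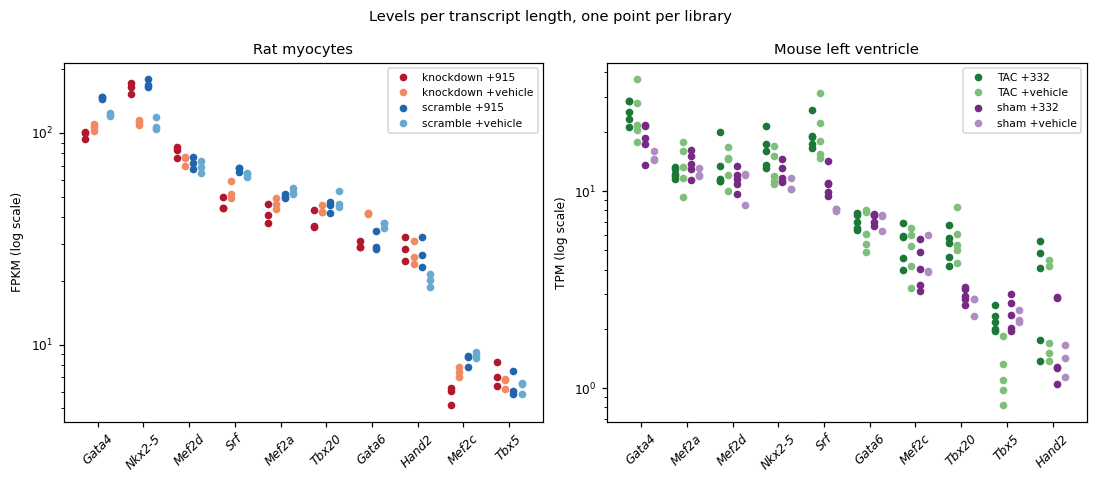
Level of each gene per transcript length, one point per library, as deposited FPKM in rat myocytes (left) and TPM in mouse left ventricle (right), on log axes and ordered by the mean in the vehicle-treated scramble or sham group. Gata4 leads in that group in both species, in mouse only together with its short transcripts, and Tbx5 lies far below it.

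With 915, Nkx2-5 was the member that rose in both knockdown and scramble cells, and Gata6 the one that fell in both. Nkx2-5, the homeodomain factor of early heart muscle, had 221.3, 206.1 and 231.2 CPM in knockdown cells with 915, against 156.5, 152.7 and 148.4 CPM in knockdown cells with vehicle. It had 229.1, 241.7 and 221.3 CPM in scramble cells with 915, against 163.0, 144.7 and 142.1 CPM in scramble cells with vehicle. Every library with 915 was above every library with vehicle. Its log2 fold change was 0.53 ± 0.06 in knockdown cells (adjusted p = 7.762e-08) and 0.62 ± 0.06 in scramble cells (adjusted p = 2.975e-09), and the difference between these effects was -0.10 ± 0.08 (adjusted p = 0.6056; 95% interval -0.25 to 0.06). Gata6 had 66.7, 62.8 and 62.5 CPM in knockdown cells with 915 and 91.6, 90.2 and 91.8 CPM in knockdown cells with vehicle. It had 74.9, 61.1 and 62.2 CPM in scramble cells with 915 and 82.2, 77.1 and 81.6 CPM in scramble cells with vehicle. The groups did not overlap in either background, and the log2 fold change was -0.51 ± 0.07 (adjusted p = 1.75e-06) in knockdown cells and -0.28 ± 0.07 (adjusted p = 0.001449) in scramble cells. In bulk samples such as these, fewer cells of a type and less RNA per cell cannot be told apart.

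**Figure D2:**
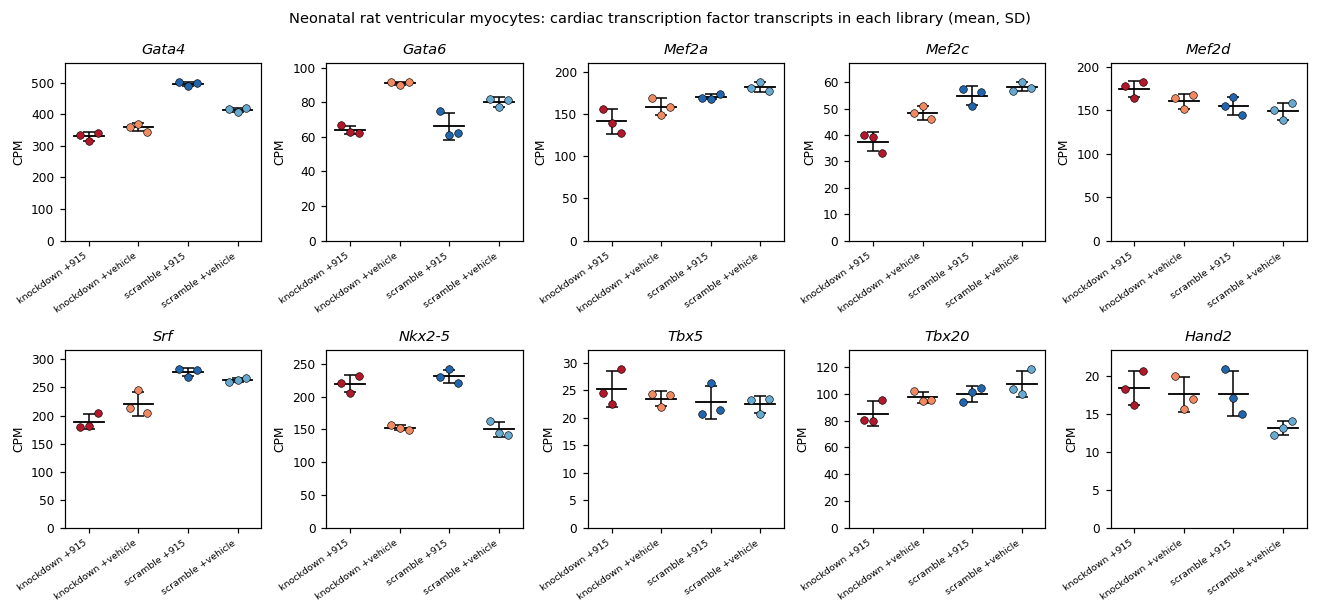
CPM of the 10 genes in each rat library (points), with the mean (line) and SD (bar) of the 3 libraries of a group. Nkx2-5 lies between 206.1 and 241.7 CPM in the 6 libraries with 915 and between 142.1 and 163.0 CPM in the 6 with vehicle, whereas Gata4 is highest in scramble cells with 915.

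With 915, Gata4 fell in knockdown cells and rose in scramble cells, and Srf fell in knockdown cells; for both, the difference between the effects was called. Gata4 had 334.4, 314.9 and 339.4 CPM in knockdown cells with 915 and 360.4, 370.6 and 345.1 CPM in knockdown cells with vehicle. It had 501.8, 488.8 and 497.5 CPM in scramble cells with 915 and 415.4, 406.2 and 419.1 CPM in scramble cells with vehicle. With 915 it changed by -0.12 ± 0.05 (adjusted p = 0.04187) in knockdown cells and 0.26 ± 0.05 (adjusted p = 5.109e-05) in scramble cells, with no overlap of the groups in either case. The difference, knockdown minus scramble, was -0.38 ± 0.07 (adjusted p = 0.0008387), and it held whichever 1 of the 12 libraries was left out. The fall of Gata4 in knockdown cells was lost without replicate 2 of the knockdown cells with 915 (adjusted p = 0.1925), replicate 1 of those with vehicle (0.1009) or replicate 2 of those with vehicle (0.1855). It was also lost with RLE size factors (0.07217), with no low-count filter (0.06287) and with the replicate number as a block (0.05236). Srf, which joins growth factor and actin signals to muscle genes, had 180.2, 182.0 and 204.5 CPM in knockdown cells with 915 and 212.8, 244.9 and 204.4 CPM in knockdown cells with vehicle. In scramble cells it had 282.6, 269.2 and 280.8 CPM with 915 and 259.7, 262.7 and 266.5 CPM with vehicle. The groups touched in knockdown cells, where the highest library with 915 exceeded the lowest with vehicle, and were apart in scramble cells. Srf changed by -0.22 ± 0.06 (adjusted p = 0.004802) in knockdown cells, lost without replicate 2 of the vehicle libraries (-0.14, 0.07691), and 0.08 ± 0.06 (adjusted p = 0.3119) in scramble cells. The difference was -0.30 ± 0.08 (adjusted p = 0.04572), and this call was lost without any 1 of 10 of the 12 libraries (adjusted p from 0.05457 to 0.1753), all but replicate 3 of the knockdown cells with 915 and replicate 3 of those with vehicle. It was also lost with RLE size factors (0.05174) and with the replicate block (0.0633). In that difference 2 of the 10 members were called, both lower, against 3.73% of all genes in either direction, 1.74% higher and 1.99% lower. Hand2 (-0.36 ± 0.18, adjusted p = 0.3312), Gata6 (-0.23 ± 0.10, 0.2201), Tbx20 (-0.09 ± 0.10, 0.74), Mef2a (-0.08 ± 0.09, 0.7274), Mef2d (0.06 ± 0.09, 0.7761) and Tbx5 (0.08 ± 0.15, 0.8476) were not called.

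Across the 10, 7 were called with 915 in knockdown cells (1 higher and 6 lower), where 35.7% of all genes were called, 18.1% higher and 17.6% lower. In scramble cells 4 were called (3 higher and 1 lower), against 42.2% of all genes, 21.5% higher and 20.6% lower. The third rise in scramble cells was Hand2, a factor of the ventricle and neural crest, with 20.9, 17.1 and 15.0 CPM with 915 and 12.2, 13.2 and 14.0 CPM with vehicle. Its log2 fold change was 0.43 ± 0.13 (adjusted p = 0.01025), lost without replicate 1 of the scramble cells with 915 (0.09917), and it was 0.07 ± 0.13 (adjusted p = 0.738) in knockdown cells. Among the MEF2 genes, Mef2c had 39.9, 39.4 and 33.3 CPM in knockdown cells with 915 and 48.2, 50.9 and 45.9 CPM in knockdown cells with vehicle. The groups were apart and the log2 fold change was -0.37 ± 0.08 (adjusted p = 0.0004746), whereas in scramble cells it was -0.09 ± 0.07 (adjusted p = 0.3819). The difference between those effects was -0.28 ± 0.11 and was not called (adjusted p = 0.1568). Mef2a fell by 0.17 on the log2 scale in knockdown cells (adjusted p = 0.03352) and Tbx20, a T-box factor of the adult myocyte, by 0.19 (adjusted p = 0.04645), and both pairs of groups overlapped. The Mef2a call was lost without replicate 2 (0.08715) or 3 (-0.10, 0.2147) of the cells with 915, or replicate 1 (0.1892) or 3 (0.07198) of those with vehicle, and by DESeq2 (0.06114) and with RLE size factors (0.05072). The Tbx20 call was lost without replicate 1 (0.1743) or 2 (0.1974) of the cells with 915, or without any of the 3 vehicle libraries (0.07013 to 0.1694), and by DESeq2 (0.07587) and with RLE size factors (0.06557). In the 12 libraries Mef2d ranged from 163.4 to 182.2 CPM in knockdown cells with 915, 150.7 to 167.0 CPM in knockdown cells with vehicle, 144.7 to 164.8 CPM in scramble cells with 915 and 138.6 to 158.3 CPM in scramble cells with vehicle. Tbx5 ranged from 22.4 to 28.8, 21.8 to 24.3, 20.7 to 26.3 and 20.7 to 23.3 CPM in the same groups, and Tbx20 from 79.7 to 95.7, 94.9 to 102.2, 93.5 to 104.5 and 100.0 to 118.4 CPM. Mef2d and Tbx5 were called in neither background, with log2 fold changes of 0.12 ± 0.06 and 0.11 ± 0.11 in knockdown cells and 0.06 ± 0.06 and 0.02 ± 0.11 in scramble cells.

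The knockdown itself lowered Gata4, Srf, Mef2c and Mef2a in both media. With 915 present, 6 of the 10 were called (1 higher and 5 lower), where 33.9% of all genes were called, 16.2% higher and 17.7% lower. With vehicle, 5 were called (1 higher and 4 lower), against 20.4% of all genes, 7.75% higher and 12.7% lower. From the library values above, Gata4 was lower in every knockdown library than in every scramble library, by log2 fold changes of -0.59 ± 0.05 with 915 (adjusted p = 1.97e-10) and -0.21 ± 0.05 with vehicle (adjusted p = 0.001786). Srf was separated likewise, at -0.55 ± 0.06 with 915 (adjusted p = 6.524e-08) and -0.25 ± 0.06 with vehicle (adjusted p = 0.002772). Mef2c had 57.6, 51.0 and 56.4 CPM in scramble cells with 915 and 56.9, 60.1 and 57.9 CPM in scramble cells with vehicle, above all 6 knockdown libraries. Its log2 fold change was -0.55 ± 0.08 with 915 (adjusted p = 2.744e-06) and -0.27 ± 0.07 with vehicle (adjusted p = 0.01011), the last lost without replicate 3 of the knockdown cells with vehicle (0.06368). Mef2a had 156.6, 139.9 and 127.8 CPM in knockdown cells with 915 and 169.4, 149.1 and 158.3 CPM in knockdown cells with vehicle. In scramble cells Mef2a had 169.6, 168.6 and 174.4 CPM with 915 and 181.6, 188.2 and 177.1 CPM with vehicle. The knockdown and scramble groups did not overlap in either medium, and Mef2a changed by -0.27 ± 0.06 with 915 (adjusted p = 0.001029) and by -0.20 ± 0.06 with vehicle (adjusted p = 0.02136). The call with vehicle was lost without replicate 2 (0.08733) or 3 (0.0678) of the knockdown libraries, or replicate 1 (0.05687) or 2 (0.08818) of the scramble libraries.

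The other members were called for the knockdown in 1 medium or in neither. Tbx20 was called with 915 (log2 fold change -0.23 ± 0.07, adjusted p = 0.01927), lost without replicate 1 (0.0788) or 2 (0.0888) of the knockdown libraries, or replicate 2 (0.06166) or 3 (0.09036) of the scramble libraries. With vehicle Tbx20 was at -0.14 ± 0.07 (adjusted p = 0.1998). Mef2d rose with 915 (0.17 ± 0.06, adjusted p = 0.03048), with overlapping groups, and that call was lost without replicate 1 (0.1061) or 3 (0.119) of the knockdown libraries, or replicate 1 (0.0729) or 3 (0.1884) of the scramble libraries. Hand2 had 20.1, 15.7 and 16.9 CPM in knockdown cells with vehicle, all above the scramble cells with vehicle. Its log2 fold change with vehicle was 0.42 ± 0.13 (adjusted p = 0.02254), lost without replicate 1 of the knockdown libraries (0.156), or replicate 1 (0.1041) or 2 (0.05518) of the scramble libraries. Gata6 stayed just outside the threshold with vehicle (0.18 ± 0.07, adjusted p = 0.05513), although its groups did not overlap. It was called with RLE size factors (adjusted p = 0.04868), with no low-count filter (0.03764) and with the replicate number as a block (0.04512). Nkx2-5 was at -0.07 ± 0.06 with 915 (95% interval -0.18 to 0.04) and 0.02 ± 0.06 with vehicle (-0.09 to 0.14), and Tbx5 at 0.15 ± 0.11 and 0.07 ± 0.11. These comparisons share control libraries with one another and are not independent.

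Most genes of a list of known myocyte targets of the 10 factors were lower in knockdown cells. The list was chosen with earlier results of these data known. Of 35 tested, 2 were higher and 26 lower in knockdown cells with 915 than in scramble cells with 915 (median log2 fold change -0.80, against 0.03 over all genes), and 4 were higher and 19 lower with vehicle (median -0.36, against 0.01). Of all genes, 33.9% were called with 915 (16.2% higher and 17.7% lower) and 20.4% with vehicle (7.75% higher and 12.7% lower). Actc1, the cardiac actin, was at -1.58 ± 0.07 (adjusted p = 4.214e-14) and Atp2a2, which returns calcium to the sarcoplasmic reticulum, at -1.19 ± 0.06 (9.224e-14) in the first of these comparisons. Ckm, muscle creatine kinase, was at -1.95 ± 0.08 (1.174e-12) there and at -2.05 ± 0.08 (1.281e-12) with vehicle. With 915, 10 targets were higher and 10 lower in knockdown cells (median -0.07) and 13 higher and 5 lower in scramble cells (median 0.11). Of all genes, 35.7% and 42.2% were called with 915 in knockdown and in scramble cells. In scramble cells Xirp2, an actin-binding protein of the intercalated disc, rose by 1.85 ± 0.07 (1.304e-14) and Ankrd1, a stress-responsive titin-binding repressor, by 0.83 ± 0.06 (2.528e-11). The difference of the 915 effects was called for 11 of 35, 1 higher and 10 lower (median -0.30, against 0.01), among them Xirp2 (-1.44 ± 0.09, adjusted p = 1.296e-08), Ankrd1 (-0.79 ± 0.08, 1.854e-06) and Actc1 (-0.88 ± 0.10, 1.151e-05). Of all genes, 3.73% were called in that difference. Gja5, a connexin, was the called gene higher in that difference (0.85 ± 0.12, 9.764e-05).

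Most cytoskeletal and immediate early targets of Srf fell with 915. Of 13 tested, 3 were higher and 10 lower in knockdown cells (median -0.78, against 0.00 over all genes) and 1 higher and 9 lower in scramble cells (median -0.59, against 0.01). Of all genes, 35.7% and 42.2% were called with 915 in knockdown and in scramble cells. Acta2, smooth muscle actin, was at -1.13 ± 0.07 (adjusted p = 1.302e-09) in knockdown cells and -1.28 ± 0.07 (1.279e-10) in scramble cells. Cnn1, calponin, was at -0.84 ± 0.06 (2.713e-10) and -1.18 ± 0.06 (4.489e-13), and Vcl, vinculin, at -0.75 ± 0.05 (9.977e-12) and -0.59 ± 0.05 (3.25e-10). Under the knockdown this list split, with 5 higher and 3 lower with 915 and 3 higher and 3 lower with vehicle, where 33.9% and 20.4% of all genes were called. Egr1, an immediate early gene, rose by 1.09 ± 0.09 (2.01e-10) with 915 and by 0.50 ± 0.09 (9.871e-05) with vehicle. Among coactivators and corepressors of the 10 factors, 11 of 20 fell and none rose with 915 in knockdown cells, and 12 fell and 2 rose in scramble cells. Of all genes, 17.6% fell and 18.1% rose in knockdown cells, and 20.6% fell and 21.5% rose in scramble cells. Those that fell included the Hippo pathway coactivators Wwtr1 (-0.63 ± 0.06, 2.624e-08 in knockdown cells and -0.60 ± 0.06, 2.687e-08 in scramble cells) and Yap1 (-0.51 ± 0.05, 6.619e-08 and -0.43 ± 0.05, 6.832e-07). Myocd, a cardiac and smooth muscle coactivator of Srf, was at -0.56 ± 0.08 (6.838e-06) in knockdown cells.

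Other cardiac transcription factors moved in both directions. Of 27 tested, 9 were higher and 11 lower with 915 in knockdown cells, 8 higher and 11 lower with 915 in scramble cells, 6 higher and 8 lower under the knockdown with 915, and 1 higher and 5 lower under the knockdown with vehicle. Of all genes, 35.7%, 42.2%, 33.9% and 20.4% were called in these comparisons, and 6 of 27 under the knockdown with vehicle is close to that last share. Nr2f2, a receptor of atrial and venous identity, was at -1.39 ± 0.08 (5.398e-12) with 915 in knockdown cells and -1.86 ± 0.09 (1.457e-14) in scramble cells, and the difference of these effects was called (0.47 ± 0.12, 0.02783). Tbx18, a T-box factor of epicardium and mural cells, was at -1.13 ± 0.09 (2.209e-10) and -1.17 ± 0.09 (1e-10). Hopx, a homeodomain cofactor that binds no DNA and partners with Srf, was at -2.41 ± 0.09 (2.928e-16) under the knockdown with 915 and -1.79 ± 0.09 (2.511e-13) with vehicle. Gata5, the related zinc finger factor, was at -1.29 ± 0.11 (7.805e-10) and -1.46 ± 0.11 (1.802e-10).

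Markers of other cells moved with these comparisons. Summed fibroblast markers (12 of 12 matched) ran from 7989 to 12480 CPM in knockdown cells with 915 and from 14740 to 17700 CPM in knockdown cells with vehicle, and from 7789 to 8795 CPM in scramble cells with 915 and 15800 to 20610 CPM in scramble cells with vehicle. Smooth muscle and pericyte markers (8 of 8) ran from 798.9 to 1241 and 1762 to 2066 CPM in the knockdown groups with 915 and with vehicle, and from 824.6 to 874.1 and 1853 to 2438 CPM in the scramble groups with 915 and with vehicle. Cnn1 stands in both that list and the Srf target list, and Actc1, Actn2 and Tnni3 in both the cardiomyocyte list and the myocyte target list. Epicardial markers (5 of 5) ran from 33.1 to 46.5 and 56.4 to 68.3 CPM in the knockdown groups and from 28.9 to 36.2 and 57.6 to 69.8 CPM in the scramble groups, in the same order. Summed cardiomyocyte markers (8 of 9) ran from 7115 to 11050 CPM in knockdown cells with 915, 10660 to 13490 CPM in knockdown cells with vehicle, 18210 to 23490 CPM in scramble cells with 915 and 15400 to 22970 CPM in scramble cells with vehicle. Leukocyte markers (7 of 7) ran from 54.4 to 97.4, 61.8 to 75.6, 38.3 to 47.8 and 36.9 to 54.3 CPM in those groups. Endothelial markers (8 of 9) ran from 43.3 to 63.0, 45.8 to 53.3, 35.2 to 42.4 and 36.1 to 48.9 CPM. The part of these cells in the changes of the 10 genes was not tested.

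**Figure D3:**
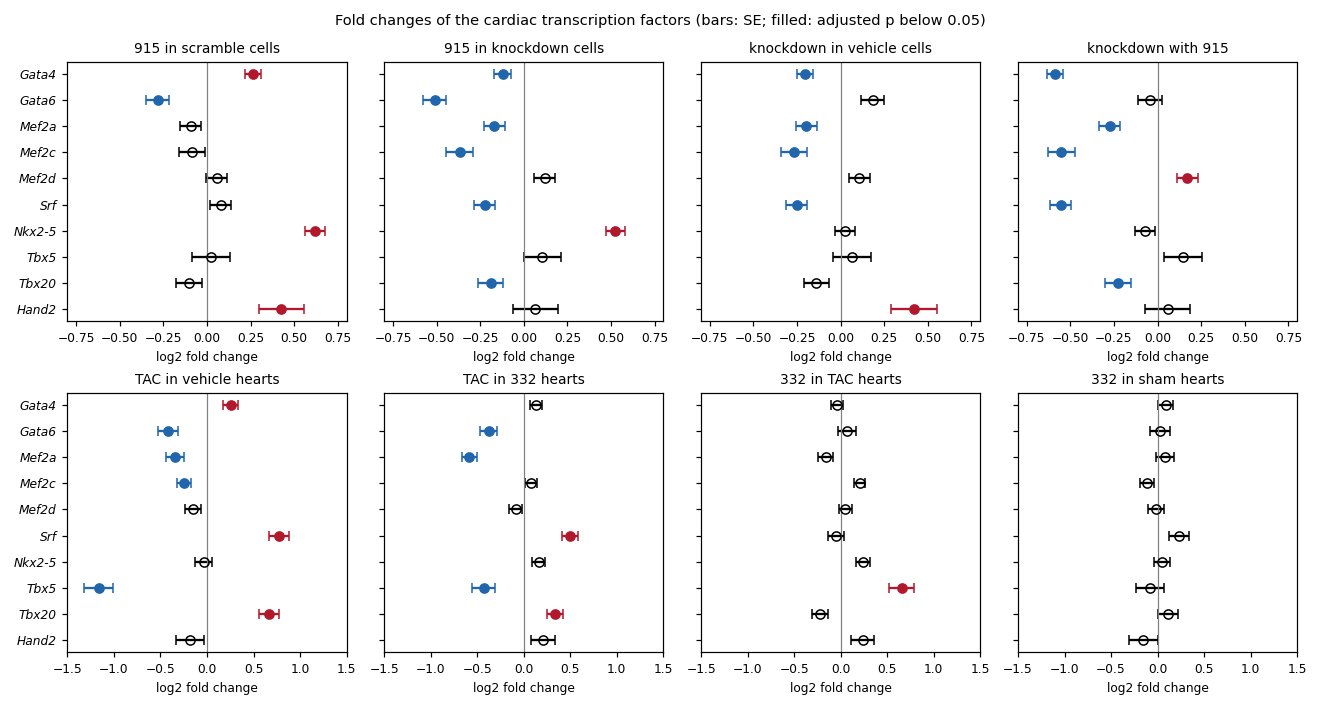
Log2 fold change (points, with SE bars) of the 10 genes in 4 rat comparisons (top) and 4 mouse comparisons (bottom); filled red and blue points are called higher and lower at an adjusted p under 0.05, and open points are not called. Tbx5 after TAC with vehicle, at -1.17, lies farthest from 0, and with 332 in sham hearts all 10 points are open.

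After TAC, Srf and Tbx20 rose and Tbx5, Mef2a and Gata6 fell in TMM-scaled CPM, with 332 and with vehicle alike in direction. With 332, 5 of the 10 were called (2 higher and 3 lower), where 23.8% of all genes were called, 11.8% higher and 12.1% lower. With vehicle, 7 were called (3 higher and 4 lower), against 26.4% of all genes, 13.5% higher and 12.8% lower. Tbx5, whose product works with Gata4 and Nkx2-5 in heart and conduction tissue, had 15.7, 18.8, 10.96, 12.8 and 15.9 CPM in TAC hearts with 332 and 20.7, 18.7, 19.9, 22.8 and 18.4 CPM in sham hearts with 332. It had 10.09, 8.073, 10.85, 11.03 and 7.255 CPM in TAC hearts with vehicle and 22.8, 21.2 and 20.1 CPM in sham hearts with vehicle. With vehicle the groups were far apart, and with 332 the highest TAC heart, at 18.8 CPM, exceeded the 2 lowest sham hearts. It changed by -1.17 ± 0.15 with vehicle (adjusted p = 2.661e-05) and -0.43 ± 0.13 with 332 (adjusted p = 0.01723). With vehicle the call was kept without any heart and within run 1 (-1.14, adjusted p = 7.674e-05). With 332 it was lost without replicate 4 of the sham hearts with 332 (0.05938) or replicate 4 of the TAC hearts with 332 (0.05225), and was at -0.36 (0.1338) in run 1 alone and -0.51 (0.278) in run 2 alone. A run was read from the sample and lane numbers in the deposited file names, with replicates 4 and 5 in run 2, and sham hearts with vehicle were only in run 1. Within run 1 the sham hearts with 332 carry a lane number of their own, so that lane and that group cannot be told apart.

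**Figure D4:**
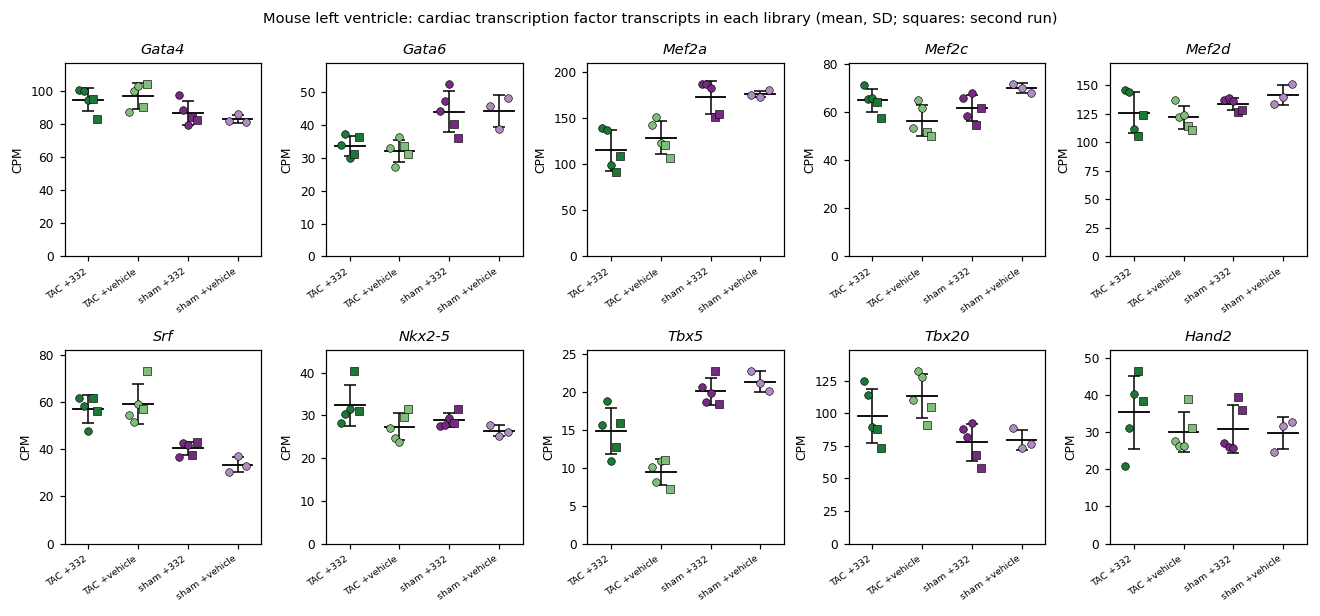
CPM of the 10 genes in each mouse heart, with the mean (line) and SD (bar) of each group; circles are hearts of run 1 and squares hearts of run 2. Tbx5 lies between 7.255 and 11.03 CPM in TAC hearts with vehicle, below all 8 sham hearts, and 4 of the 5 TAC hearts with 332 lie above that range.

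Srf had 61.9, 58.6, 47.7, 61.7 and 56.1 CPM in TAC hearts with 332 and 36.9, 42.6, 41.7, 37.8 and 43.0 CPM in sham hearts with 332. It had 54.8, 51.4, 59.3, 57.1 and 73.3 CPM in TAC hearts with vehicle and 30.5, 37.0 and 33.1 CPM in sham hearts with vehicle. Every TAC heart was above every sham heart. The log2 fold change of Srf was 0.50 ± 0.09 with 332 (adjusted p = 0.0003141) and 0.77 ± 0.11 with vehicle (adjusted p = 2.934e-05), and in run 1 alone it was 0.48 (0.004872) and 0.73 (7.88e-05). In run 2 alone, with 2 hearts a group, it was 0.55 with 332 and was not called (0.1368). Tbx20 had 124.9, 113.7, 89.2, 87.7 and 73.6 CPM in TAC hearts with 332 and 88.2, 82.1, 92.3, 67.8 and 58.1 CPM in sham hearts with 332. In the vehicle groups Tbx20 had 110.1, 132.6, 127.7, 91.4 and 104.7 CPM in TAC hearts and 88.5, 73.6 and 76.3 CPM in sham hearts. The vehicle groups were apart and the 332 groups overlapped, and the run 2 hearts were the lowest 2 of each group that had them. Tbx20 changed by 0.33 ± 0.09 with 332 (adjusted p = 0.007551) and 0.67 ± 0.11 with vehicle (adjusted p = 0.0001265). With 332 it was not called without the run term (0.33, 0.136), in run 1 alone (0.33, 0.06314) or in run 2 alone (0.36, 0.2268).

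Mef2a had 139.8, 137.3, 99.1, 91.2 and 108.6 CPM in TAC hearts with 332 and 187.5, 187.2, 183.0, 151.5 and 154.8 CPM in sham hearts with 332. It had 142.3, 151.6, 122.7, 120.6 and 107.0 CPM in TAC hearts with vehicle and 175.6, 173.4 and 180.5 CPM in sham hearts with vehicle. The TAC and sham groups did not overlap under either treatment. Mef2a changed by -0.59 ± 0.08 with 332 (adjusted p = 3.466e-05) and -0.34 ± 0.10 with vehicle (adjusted p = 0.01143); in run 1 alone the values were -0.56 (0.002629) and -0.34 (0.02978), and in run 2 alone, with 332, -0.61 (0.08578). Gata6 had 33.8, 37.1, 29.9, 31.2 and 36.2 CPM in TAC hearts with 332 and 44.2, 47.1, 52.4, 40.2 and 36.0 CPM in sham hearts with 332. In the vehicle groups Gata6 had 32.9, 27.2, 36.1, 33.6 and 31.0 CPM in TAC hearts and 45.8, 38.8 and 48.0 CPM in sham hearts. With 332 the groups met at the lowest sham heart, from run 2, and with vehicle they were apart. Gata6 changed by -0.38 ± 0.09 with 332 (adjusted p = 0.004799) and -0.42 ± 0.11 with vehicle (adjusted p = 0.007688), the last lost without replicate 3 of the sham hearts with vehicle (0.05746). In run 1 alone the values were -0.50 (0.00727) and -0.46 (0.006371), and in run 2 alone, with 332, -0.17 (0.4683).

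In TPM, which carries no TMM scaling and was not tested, Mef2a averaged 12.4 ± 0.710 in TAC hearts with 332 and 13.9 ± 1.81 in sham hearts with 332, and 13.6 ± 3.31 in TAC hearts with vehicle and 12.4 ± 0.625 in sham hearts with vehicle. Its mean with vehicle is therefore higher after TAC on that scale, but only through the run 2 TAC hearts, at 15.9 and 17.7 TPM. The run 1 TAC hearts had 11.7, 13.3 and 9.35 TPM. The sham hearts with vehicle, all of run 1, had 11.9, 12.1 and 13.1 TPM. The TMM factors of the mouse libraries ran from 0.884 to 1.148. TPM also differs from CPM through transcript lengths and the division of reads between transcripts. These, TMM scaling and run were not separated here. Mef2c, called lower in CPM with vehicle as given next, averaged 5.03 ± 1.34 TPM in TAC hearts with vehicle and 4.60 ± 1.22 TPM in sham hearts with vehicle, also the opposite in the mean. Its TAC hearts with vehicle had 3.21, 6.49 and 4.19 TPM in run 1 and 5.27 and 6.01 TPM in run 2. Its sham hearts with vehicle had 6.005, 3.91 and 3.88 TPM. Gata6, Tbx5, Tbx20, Srf and Gata4 kept the direction of their CPM in mean TPM under both treatments. For Gata6 with 332 the means were close, at 7.03 ± 0.628 TPM after TAC and 7.27 ± 0.434 TPM after sham surgery. Those of Tbx5 with 332 were close too, at 2.21 ± 0.278 TPM after TAC and 2.41 ± 0.450 TPM after sham surgery, with overlapping ranges. Mef2d, Nkx2-5 and Hand2, called under neither treatment, had higher mean TPM after TAC under both. Their log2 fold changes in the CPM fit were below 0 for Mef2d under both treatments, and for Nkx2-5 and Hand2 with vehicle.

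Gata4 and Mef2c were called after TAC with vehicle, but not with 332. Gata4 had 87.6, 100.2, 102.8, 90.3 and 104.4 CPM in TAC hearts with vehicle and 81.8, 85.99 and 81.4 CPM in sham hearts with vehicle, apart from one another, with a log2 fold change of 0.25 ± 0.08 (adjusted p = 0.02356). That call was lost without the run term (0.22, 0.08271), in run 1 alone (0.23, 0.0628) and without replicate 1 (0.08538) or 3 (0.09855) of the sham hearts, or replicate 3 of the TAC hearts (0.06863). Mef2c had 53.7, 65.1, 61.7, 51.8 and 50.2 CPM in TAC hearts with vehicle and 71.9, 70.3 and 68.1 CPM in sham hearts with vehicle, with a log2 fold change of -0.25 ± 0.08 (adjusted p = 0.01965). It was lost with no low-count filter (-0.24, 0.06188), in run 1 alone (-0.21, 0.0804) and without replicate 1 (0.06853) or 2 (0.05443) of the sham hearts, or replicate 1 of the TAC hearts (0.0565). In the 332 groups Gata4 had 100.7, 99.8, 94.7, 95.5 and 83.2 CPM in TAC hearts and 97.9, 88.7, 79.5, 84.3 and 82.5 CPM in sham hearts, and Mef2c had 71.3, 65.6, 66.1, 64.3 and 57.5 CPM in TAC hearts and 65.8, 58.5, 68.0, 54.6 and 61.8 CPM in sham hearts. These groups overlapped: TAC against sham gave 0.13 ± 0.07 for Gata4 (adjusted p = 0.1673) and 0.07 ± 0.06 for Mef2c (adjusted p = 0.4389). Mef2d ranged from 105.7 to 145.9 CPM in TAC hearts with 332, 110.5 to 137.2 CPM in TAC hearts with vehicle, 126.8 to 138.4 CPM in sham hearts with 332 and 133.5 to 151.1 CPM in sham hearts with vehicle. Hand2 ranged from 20.9 to 46.5, 26.2 to 39.0, 25.8 to 39.5 and 24.8 to 32.7 CPM in those groups. Nkx2-5 ranged from 28.3 to 40.4, 23.8 to 31.5, 27.4 to 31.5 and 25.2 to 27.7 CPM. Mef2d, Nkx2-5 and Hand2 were called under neither treatment: their log2 fold changes were -0.09 ± 0.07, 0.16 ± 0.07 and 0.20 ± 0.13 with 332, and -0.15 ± 0.08, -0.04 ± 0.09 and -0.18 ± 0.15 with vehicle.

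Within TAC hearts, 332 raised Tbx5. This was the only 1 of the 10 genes called for 332 in TAC hearts, where 0.427% of all genes were called, 0.135% higher and 0.292% lower. By the values above, 4 of the 5 TAC hearts with 332 were above all 5 TAC hearts with vehicle, and the lowest, at 10.96 CPM, lay just below the highest vehicle heart, at 11.03 CPM. The means were 14.8 ± 3.03 CPM with 332 and 9.46 ± 1.70 CPM with vehicle (SD, n = 5 each), and the log2 fold change was 0.66 ± 0.13 (adjusted p = 0.0311). The value was much the same within each run, 0.66 in run 1 (adjusted p = 0.1991) and 0.65 in run 2 (adjusted p = 0.8212), with no call in either. It was also not called with the replicate number as a block (0.66, adjusted p = 0.05847), without the run term (0.65, 0.06084), or without replicate 1 (0.05088), 2 (0.07814) or 5 (0.0899) of the hearts with 332, or replicate 1 (0.06257), 2 (0.06198) or 5 (0.09761) of those with vehicle. In sham hearts 332 gave -0.08 ± 0.15 for Tbx5 (95% interval -0.38 to 0.22), and the difference between the effects, TAC minus sham, was 0.73 ± 0.20 and was not called (adjusted p = 0.1674). The other 9 were not called in TAC hearts. Nkx2-5 had 28.3, 30.3, 31.6, 40.4 and 30.9 CPM in TAC hearts with 332 and 27.1, 24.7, 23.8, 29.5 and 31.5 CPM in TAC hearts with vehicle (log2 fold change 0.24 ± 0.07, adjusted p = 0.145). Mef2c was at 0.20 ± 0.06 (adjusted p = 0.1547), Hand2 at 0.24 ± 0.13 (0.4509), Tbx20 at -0.22 ± 0.09 (0.2691) and Mef2a at -0.16 ± 0.08 (0.4078). Gata4, Gata6, Mef2d and Srf lay between -0.05 and 0.07.

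In sham hearts, none of the 10 was called for 332 by edgeR, where 0.00712% of all genes were called. An unadjusted p under 0.05 was found for 1 of the 10, Srf, and for 4.88% of all genes. Srf was at 0.23 ± 0.11 (adjusted p = 0.997), and the other 9 lay between -0.15 for Hand2 and 0.12 for Tbx20. None of the 10 was called in the difference of the 332 effects either, where 0.0641% of all genes were called, 0.0214% higher and 0.0427% lower, and 3 of them, Tbx5, Mef2c (0.32 ± 0.10, adjusted p = 0.2195) and Tbx20 (-0.33 ± 0.14, adjusted p = 0.3788), had an unadjusted p under 0.05. Such a p was found for 10% of all genes in that difference. DESeq2 called none of the 10 in sham hearts and none in that difference. With no low-count filter edgeR called 1 of the 10 in that difference, Tbx5 (0.73, adjusted p = 0.0006719).

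Known myocyte targets of the 10 factors split after TAC: of 37 tested, 15 were higher and 11 lower with 332 (median log2 fold change 0.08, against 0.00 over all genes), and 17 higher and 9 lower with vehicle (median 0.24, against -0.01). Of all genes, 23.8% were called with 332 and 26.4% with vehicle, the shares that stand beside this and the following lists. Acta1, skeletal actin, rose by 4.20 ± 0.40 with 332 (adjusted p = 1.446e-05) and 4.55 ± 0.51 with vehicle (4.772e-05). Nppb, the B-type natriuretic peptide, rose by 3.12 ± 0.31 with vehicle (1.51e-05), Ankrd1 by 2.25 ± 0.24 with 332 (2.937e-05), and Hspb7, a small heat shock protein, by 0.56 ± 0.06 with 332 (3.992e-06) and 0.56 ± 0.08 with vehicle (2.91e-05). Tnni3, cardiac troponin I, fell by 0.77 on the log2 scale with vehicle (2.491e-05). Of 15 cytoskeletal and immediate early targets of Srf, 5 were higher and 1 lower with 332 and 6 higher and 1 lower with vehicle, including Ccn2, a matricellular protein (1.94 ± 0.41, 0.003895 with 332 and 2.36 ± 0.51, 0.004531 with vehicle), and Tpm1, a tropomyosin, which was the lower one (-0.30 ± 0.07, 0.003153 and -0.42 ± 0.08, 0.0007452). Of 21 coactivators and corepressors, 3 were higher and 3 lower with 332 and 5 higher and 2 lower with vehicle, not far from those shares of all genes. Those called included Wwtr1 (0.30 ± 0.08, 0.006934 and 0.36 ± 0.09, 0.005811), Yap1 (0.21 ± 0.06, 0.02236 and 0.35 ± 0.08, 0.002295) and Hdac5, a class II histone deacetylase that restrains MEF2 (-0.40 ± 0.07, 0.0005065 and -0.39 ± 0.09, 0.002433). Of 23 other cardiac transcription factors, 1 was higher and 5 lower with 332, and 1 higher and 3 lower with vehicle, where 23.8% and 26.4% of all genes were called. Hopx was at -0.92 ± 0.23 (0.01062) and -1.17 ± 0.27 (0.006477), and Tead1, the DNA-binding partner of Yap1, at 0.80 ± 0.11 (5.211e-05) with vehicle. With 332, edgeR called no gene of these 4 lists in TAC or in sham hearts. At an unadjusted p under 0.05 it gave 4 myocyte targets, 1 Srf target, 3 coactivators or corepressors and 5 other factors in TAC hearts, and 4, 0, 4 and 2 in sham hearts. Of all genes, 12.7% and 4.88% had such a p in TAC and in sham hearts. DESeq2 called 1 myocyte target and 1 other factor in TAC hearts and none in sham hearts. Summed fibroblast markers (12 of 12 matched) ran from 1137 to 2925 CPM in TAC hearts with 332 and 770.4 to 867.7 CPM in sham hearts with 332, and from 1452 to 2410 CPM in TAC hearts with vehicle and 754.4 to 839.1 CPM in sham hearts with vehicle. Cardiomyocyte markers (9 of 9) ran from 44020 to 62040 and 56060 to 69740 CPM with 332, and from 45580 to 54880 and 53210 to 56180 CPM with vehicle, in TAC and sham hearts in that order. Leukocyte markers (7 of 7) ran from 111.2 to 163.5 CPM in TAC hearts with 332, 157.6 to 218.2 CPM in TAC hearts with vehicle, 108.8 to 173.6 CPM in sham hearts with 332 and 117.5 to 155.7 CPM in sham hearts with vehicle. Epicardial and mesothelial markers (5 of 5) ran from 3.604 to 6.145 CPM in TAC hearts with 332, 3.94 to 11.2 CPM in TAC hearts with vehicle, 8.07 to 19.0 CPM in sham hearts with 332 and 3.52 to 9.77 CPM in sham hearts with vehicle. Endothelial (9 of 9) and smooth muscle (8 of 8) sums overlapped between TAC and sham hearts, over 646.2 to 836.2 CPM and 415.3 to 707.5 CPM. The part of these cells in the changes of the 10 genes was not tested.

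Annotated transcripts with the small MEF2 exon printed above held very different shares of the 3 genes in left ventricle. Each value is the share of a gene's coding TPM that comes from transcripts holding the exon. The shares rest on reads that Salmon divided between overlapping transcripts, and no test was run. Reads over the exon itself were not counted. For Mef2a the exon lay mainly in a transcript of 5538 bases, and for Mef2d in one of 1791 bases. A Mef2d transcript of 5401 bases lacks it. The shares can therefore also follow other parts in which these transcripts differ. By this estimate Mef2a carried the exon in most transcripts, at 89.7% ± 3.91 in TAC hearts with 332, 85.1% ± 5.20 in TAC hearts with vehicle (SD, n = 5 each), 89.5% ± 2.60 in sham hearts with 332 (n = 5) and 90.3% ± 1.38 in sham hearts with vehicle (n = 3). Mef2c carried it in 16.3% ± 7.88, 23.4% ± 11.7, 17.1% ± 7.24 and 16.3% ± 9.35 in those groups, with the widest spread between hearts, from 6.57% to 38.9% among TAC hearts with vehicle. Mef2d carried it in 11.7% ± 2.97, 14.0% ± 2.71, 14.7% ± 2.01 and 9.18% ± 1.54. For Mef2a and Mef2c the ranges of the 4 groups overlapped. For Mef2d the 3 sham hearts with vehicle, at 7.80% to 10.8%, lay below all 5 TAC hearts with vehicle, at 11.2% to 16.97%, and below all 5 sham hearts with 332, at 12.6% to 17.8%. The order of the genes, with Mef2a far above Mef2c and Mef2d, held in all 18 hearts.

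**Figure D5:**
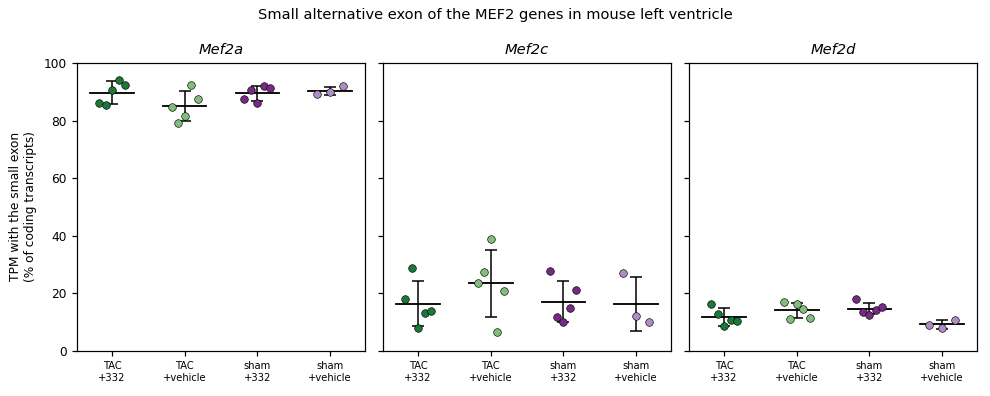
Share of coding TPM from transcripts with the small alternative exon, in percent, for Mef2a, Mef2c and Mef2d in each mouse heart (points), with mean (line) and SD (bar) per group. Mef2a lies between 79.1% and 94.3%, and neither of the other 2 genes exceeds 38.9%.

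For Tbx5 the balance of transcripts is given beside its level. Its shorter protein-coding transcript of 1170 bases made up 18.8% ± 9.50 of the gene's TPM in TAC hearts with 332 and 6.397% ± 8.81 in TAC hearts with vehicle (SD, n = 5 each), and 25.3% ± 9.03 in sham hearts with 332 (n = 5) and 24.7% ± 11.1 in sham hearts with vehicle (n = 3). It was listed at 0 in 3 of the 5 TAC hearts with vehicle and had at most 25.85 estimated reads in any heart, so the values are imprecise, and no test was run. The longer transcript of 3942 bases had 1.69 ± 0.213 TPM in TAC hearts with 332, 1.06 ± 0.257 TPM in TAC hearts with vehicle, 1.78 ± 0.405 TPM in sham hearts with 332 and 1.69 ± 0.160 TPM in sham hearts with vehicle.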

How the data were processed

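RNA-seq of 12 rat myocyte libraries and 18 mouse left ventricles was used. Rat reads were aligned and counted on rn6, per the submitters' processing notes, which name featureCounts 1.5.0-p3, HISAT2 2.0.5, DESeq2 1.20.0 and StringTie 1.3.3b for rat and Salmon, fastp and DESeq2 for mouse; the mouse build is not given in the sources used here. The deposited rat table holds whole counts, FPKM and the authors' own comparisons (log2 fold change, p-value), which entered no test. The rat library kit was not stranded, per the labels. The deposited mouse tables hold estimated counts and TPM for 140790 transcripts, which were summed to 54307 genes and rounded.

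Genes were kept by filterByExpr (minimum count 10), which left 15181 rat and 14047 mouse genes, and tested in R 4.3.3 with edgeR 4.0.16 (TMM scaling, robust quasi-likelihood F-test) and Benjamini-Hochberg adjustment over all genes at 0.05. The rat fit had 4 groups; the mouse fit had 4 groups and a sequencing run term. The fitting code was tested on simulated data. The SE is the absolute log2 fold change divided by the square root of F, and 95% intervals use it with the normal quantile. All 10 members were reported in each comparison, with Esrra and Esrrg as the check, and from each other list up to 4 called genes of smallest adjusted p were eligible. 1 gene that this rule names is not reported here. The members and lists were chosen with earlier results of these data known. Every result was recomputed with DESeq2 1.42.0 (Wald test), RLE scaling, all genes unfiltered, a replicate block, 1 library removed at a time and, for mouse, without the run term and within a single run.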

Additional observations from a re-analysis of the deposited data

Results flagged for a closer look

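Gata4 and Srf differed between backgrounds in their response to 915: the difference of the log2 fold changes, knockdown minus scramble, was -0.38 for Gata4 (adjusted p = 0.0008387) and -0.30 for Srf (adjusted p = 0.04572), by edgeR. Gata4 was lower with 915 in knockdown cells and higher in scramble cells. For Srf the call depended on single libraries, as given above.

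In TAC hearts with 332, Nkx2-5 in replicate 4 was at 40.4 CPM, and the other 4 hearts lay between 28.3 and 31.6 CPM; its gap to the next heart was 0.731 of the group's range, beyond the critical value of 0.71. Of 30 groups of 5 hearts examined in this way 1 stood out, and chance gives about 5%.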

How the results depend on the processing

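Of the 37 calls of single members over the 10 comparisons, 17 were kept in every alternative and with every library left out, and none changed direction. Members called with RLE size factors numbered 4 for 915 in knockdown cells and 1 for the difference of 915 effects. With a replicate block they numbered 1 for the difference of 915 effects and 0 for 332 in TAC hearts. With no low-count filter 1, Tbx5, was called for the difference of 332 effects. With no run term 0 were called for 332 in TAC hearts. In run 1 alone 3 were called for TAC in 332 hearts and 0 for 332 in TAC hearts, and in run 2 alone 0 and 0. With 1 library left out, the number called ran from 4 to 6 for 915 in knockdown cells, 1 to 2 for the difference of 915 effects, 3 to 5 for the knockdown with vehicle, and 0 to 1 for 332 in TAC hearts. Leaving out 1 library also added 3 calls: Mef2d for 915 in knockdown cells (0.17, adjusted p = 0.04374, without replicate 2 with 915), and for TAC in 332 hearts Hand2 (0.31, 0.02471, without TAC replicate 1 with 332) and Nkx2-5 (0.21, 0.04348, without TAC replicate 5 with 332). The cause was not tested. Deviations of same-numbered libraries had correlations from -0.0529 to 0.0401 in rat and -0.2735 to 0.0758 in mouse. Libraries of different number had -0.0558 to 0.0623 in rat and -0.1459 to 0.2735 in mouse. In mouse run 2, with 2 hearts a group, the deviations within a group mirror each other, so this check cannot tell whether numbers mark pairs there. The block ended the calls of Gata4 for 915 in knockdown cells (adjusted p = 0.05236), of Srf for the difference of 915 effects (0.0633) and of Tbx5 for 332 in TAC hearts (0.05847), added that of Gata6 for the knockdown with vehicle (0.04512), and changed no other.

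Under the settings that kept every library or a whole run, counts of all genes moved by more than 1.5 times as follows. For 332 in TAC hearts 671 were called with no low-count filter, 183 by DESeq2, 13 with no run term, 10 in run 1 and 3 in run 2, against 60. For 332 in sham hearts the numbers were 191, 5, 0 and 12 (run 1), against 1, and for the difference of 332 effects 521, 88, 0 and 5, against 9. For TAC in 332 hearts 2208 were called with no run term, 1662 in run 1 and 52 in run 2, against 3349. With 1 library left out, the difference of 915 effects fell to as few as 259 genes, against 566. TAC with vehicle fell to 2437, against 3703, without replicate 3 of the sham hearts with vehicle. In such fits 332 in TAC hearts ran from 22 to 94, 332 in sham hearts from 0 to 2, and the difference of 332 effects from 0 to 25.

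The sign turned in 18 of 63 results that were not called. With no run term these were Nkx2-5 (0.0505) and Hand2 (0.0146) for TAC with vehicle, and Gata6 (-0.0097), Mef2a (-0.0307), Tbx20 (-0.0335) and Hand2 (0.0565) for 332 in sham hearts. In run 1 alone they were Gata4 (0.0238) and Srf (0.024) for 332 in TAC hearts, and Gata6 (-0.0412) for the difference of 332 effects. With 1 library left out, log2 fold changes ran as follows: for 915 in knockdown cells Tbx5 -0.0027 to 0.191 and Hand2 -0.031 to 0.1715; for 915 in scramble cells Tbx5 -0.0917 to 0.0875; for the difference of 915 effects Tbx5 -0.0275 to 0.1978; for the knockdown with 915 Gata6 -0.1007 to 0.0503 and Hand2 -0.0484 to 0.1915; for the knockdown with vehicle Nkx2-5 -0.013 to 0.0887; for 332 in TAC hearts Gata4 -0.0861 to 0.0059, Gata6 -0.0007 to 0.1173 and Srf -0.0902 to 0.0297; for 332 in sham hearts Gata6 -0.0646 to 0.0836 and Mef2d -0.0657 to 0.0239; and for the difference of 332 effects Gata6 -0.0375 to 0.1282.

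Depth limits Hand2 in rat and Tbx5 in mouse most, with 201 and 115 counts in their least covered library. Sham hearts with vehicle were in 1 run only, so in that group the run term rests on the other groups.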
